A study of Mus musculus with 4 samples.

Results

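The complement genes measured here were 9 genes chosen by name: the C1q chains C1qa, C1qb and C1qc, the components C3, C4b and Cfb, the receptors C3ar1 and C5ar1, and the inhibitor gene Serping1. They are 9 of the 48432 gene rows in the authors' table. The series compared cardiomyocytes, the contractile cells of the heart, from 2 groups of mice on a C57BL x FVB background. The MHC control group (2 libraries) carried the genotype labelled MHC. The Rbfox2 OE group (2 libraries) carried the genotype labelled RbFox2 and overexpressed RBFOX2, an RNA-binding regulator of splicing. Mice of both groups had eaten a doxycycline diet for 3 days before the cells were isolated by Langendorff perfusion, so the controls share that treatment. The labels do not spell out what MHC stands for, nor the promoter of the transgene, the sex or age of the mice, or how many mice gave each library.

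Complement is a cascade of plasma proteins, made chiefly by the liver, that tags and lyses microbes and helps clear damaged cells. It is started by the classical, the lectin and the alternative pathway, which meet at the cleavage of C3. The released fragments C3a and C5a act on receptors of leukocytes, and inhibitors on cell surfaces and in plasma hold the cascade in check. Within tissues many components are also made locally, and macrophages are a well-known source of C1q.

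The table gave each group 1 value in FPKM (sequenced fragments scaled by transcript length and library size), combined over its libraries. Each value has a lower and an upper bound in the authors' Cuffdiff output, at a level that is not stated. A range in parentheses after a value gives its bounds, and MHC cells are those of the control group. No value per library was used, so the spread between replicates is unknown and no test was run. Differences are given as the ratio of the FPKM values and as a log2 ratio after adding 1 FPKM to each value, which understates the change of low genes. The bounds of a gene are called separate where they do not overlap between the groups. Rbfox2 stood at 14.7 FPKM in MHC cells (10.4 to 19.0) and 293 FPKM in Rbfox2 OE cells (214 to 373), in the direction of the labels. Of genes that define cardiomyocytes, Tnnt2 (troponin T) stood at 10609 and 6917 FPKM, whereas Myh6 had no estimate in either group and is listed at 0. The depth of the libraries is unknown.

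All 9 complement genes were higher in Rbfox2 OE, by 2.54 to 5.48 times, and the bounds of all 9 were separate. Their log2 ratios ran from 1.16 to 1.92 with a median of 1.37, whereas the median of the 11697 genes compared (those averaging 1 FPKM or more over the groups) was -0.06. All 9 passed a 2-fold threshold upward (a log2 ratio of at least 1), against 6.97% of the genes compared (1172 of them passed it downward). Separate bounds upward were found for 6.67% of those genes and downward for 9.33%, and both criteria together for 5.27% upward and 7.42% downward. C3ar1 was the 1 member under 1 FPKM in the control, and it entered the comparison only through its value in Rbfox2 OE. The members were chosen with these values already known, so their common direction is a description. Because RNA was taken from the whole preparation, more cells of a type and more RNA per cell cannot be told apart.

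**Figure D1:**
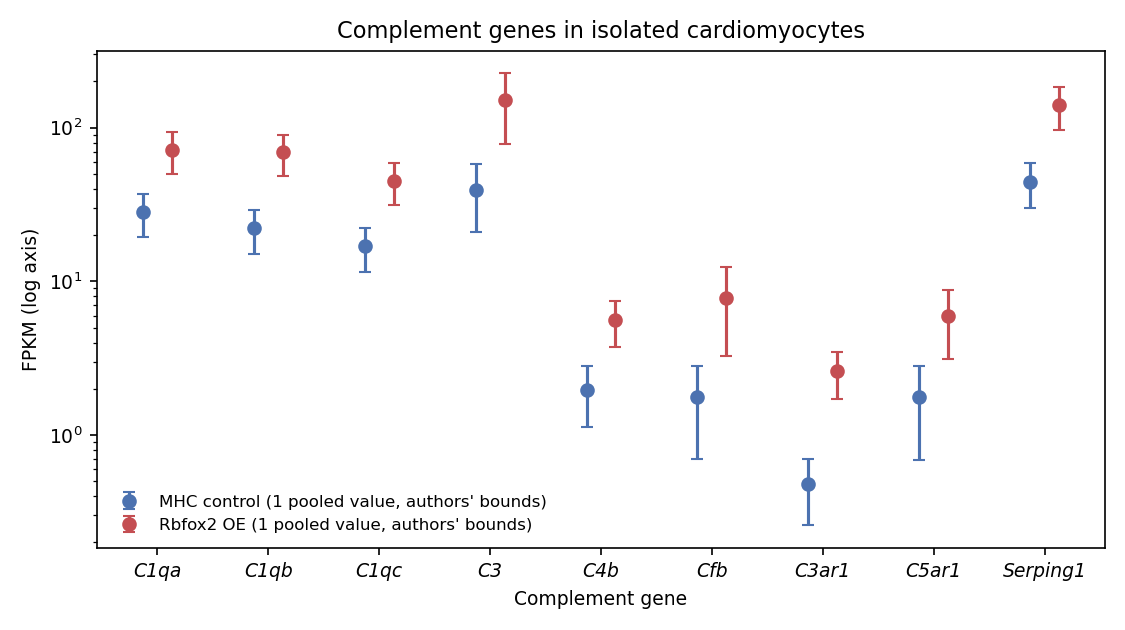
FPKM of the 9 complement genes (log axis) in MHC control (blue) and Rbfox2 OE (red); each point is the authors' 1 pooled value of a group and each bar runs from the authors' lower to upper bound. In every gene the red bar lies above the blue bar, with the narrowest gaps at C5ar1 and Cfb.

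The start-site regions of 4 members are shown first, since these genes lie on 3 chromosomes and were all higher in Rbfox2 OE. RefSeq's table (build GRCm38.p6) held 300 bases, from 250 before to 50 after the annotated start, for 5 of the 9 members: C1qb, C1qc, C3, C3ar1 and C5ar1. Capitals mark matches to 4 motifs searched on both strands. TATAAA is the TATA box, and GAGGAA is a core of the sites bound by PU.1, a transcription factor of myeloid cells. A site of the C/EBP type was written TTGCNNAA, and the AP-1 site was written TGACTCA.
C1qb promoter, chr4:136886151-136886450, minus strand: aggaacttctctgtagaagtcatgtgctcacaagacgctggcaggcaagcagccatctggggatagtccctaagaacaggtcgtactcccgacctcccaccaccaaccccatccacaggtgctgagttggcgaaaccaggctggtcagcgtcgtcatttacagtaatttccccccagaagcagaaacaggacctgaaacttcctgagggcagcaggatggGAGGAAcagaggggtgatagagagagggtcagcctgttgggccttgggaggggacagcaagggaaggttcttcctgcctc
C1qc promoter, chr4:136892865-136893164, minus strand: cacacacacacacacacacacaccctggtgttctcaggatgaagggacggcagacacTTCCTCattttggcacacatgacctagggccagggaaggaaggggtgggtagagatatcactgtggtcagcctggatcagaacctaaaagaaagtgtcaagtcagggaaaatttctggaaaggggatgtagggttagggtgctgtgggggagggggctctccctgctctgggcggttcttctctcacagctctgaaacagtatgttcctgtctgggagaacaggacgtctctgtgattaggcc
C3 promoter, chr17:57228087-57228386, minus strand: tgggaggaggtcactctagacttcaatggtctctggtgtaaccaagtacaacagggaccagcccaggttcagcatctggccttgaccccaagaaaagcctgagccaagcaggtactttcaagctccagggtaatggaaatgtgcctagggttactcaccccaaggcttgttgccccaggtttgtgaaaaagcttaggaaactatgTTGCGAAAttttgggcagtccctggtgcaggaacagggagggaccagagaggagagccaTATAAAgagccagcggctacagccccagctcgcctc
C3ar1 promoter, chr6:122856108-122856407, minus strand: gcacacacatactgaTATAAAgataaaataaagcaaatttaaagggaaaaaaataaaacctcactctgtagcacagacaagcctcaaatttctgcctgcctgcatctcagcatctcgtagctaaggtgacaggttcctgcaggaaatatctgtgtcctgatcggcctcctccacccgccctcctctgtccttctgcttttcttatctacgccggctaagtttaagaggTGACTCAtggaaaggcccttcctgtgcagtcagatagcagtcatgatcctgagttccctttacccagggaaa

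No motif searched was common to the windows. The PU.1 core stood in the windows of C1qb, 30 bases before the start, and of C1qc, on the opposite strand 193 bases before it, and the same letters occur in 28.3% of all 32851 promoters of that length. The C/EBP-type match was in the C3 window, 45 bases before the annotated start (10.8% of all promoters hold one). The same window has the letters TATAAA beginning at base 15 after that start (in 13.6% of all promoters). C3ar1 had an AP-1 match 22 bases before its start (5.20% of all promoters) and the letters TATAAA 235 bases before it. The C5ar1 window, not shown, held none of the motifs. All distances are from RefSeq's start. For C1qc and C5ar1 the GENCODE annotation, used for the gene coordinates below, begins further upstream, at 136893065 and 16259540. Counted from there, the C1qc match would lie nearer the start and the C5ar1 window would reach less far upstream. A match describes these letters only and is not evidence that a factor binds there.

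The genes C1qa, C1qb and C1qc encode the chains that assemble into C1q, the recognition molecule of the classical pathway. They lie side by side on chromosome 4 (GRCm38, minus strand, 136880129 to 136898803), each with 3 exons in its longest transcript, in the order C1qb, C1qc and C1qa. Gaps of 3616 and 2851 bases separate the neighbours, and no other annotated gene overlaps any of the chains.

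C1qa (ENSMUSG00000036887) stood at 28.3 FPKM in MHC cells (19.4 to 37.1) and 71.7 FPKM in Rbfox2 OE cells (49.96 to 93.4). C1qb (ENSMUSG00000036905) stood at 22.1 FPKM (15.1 to 29.2) and 69.2 FPKM (48.4 to 90.0). C1qc (ENSMUSG00000036896) stood at 16.9 FPKM (11.4 to 22.4) and 45.3 FPKM (31.5 to 59.1). All chains were thus higher in Rbfox2 OE, with no overlap between the groups, by a ratio of 2.54 for C1qa, 3.13 for C1qb and 2.68 for C1qc. Taking the bounds nearest to each other, these ratios would be 1.34, 1.66 and 1.41.

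The chains kept 1 order of level in both groups, C1qa above C1qb above C1qc, although neighbours in that order had overlapping bounds. Per length, C1qa was 1.67 times C1qc in the control and 1.58 times in Rbfox2 OE, and C1qa over C1qb was 1.28 and 1.04. Together the chains summed to 67.3 FPKM in MHC cells and 186 FPKM in Rbfox2 OE cells. Transcripts of the chains shared 0 windows of 50 bases with each other, so their fragments can be told apart at that length.

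C4b encodes C4, which is cleaved downstream of C1q to build the convertase that splits C3. C4b (ENSMUSG00000073418, chromosome 17, 34728380 to 34743882, minus strand) was low, at 1.98 FPKM in MHC cells (1.13 to 2.82) and 5.63 FPKM in Rbfox2 OE cells (3.77 to 7.49), a ratio of 2.85. Its log2 ratio of 1.16 was the lowest of the members after adding 1 FPKM, although its plain ratio was above those of C1qa (2.54) and C1qc (2.68). Its neighbouring copy C4a was listed at 0.215 and 0.342 FPKM with overlapping bounds. Because 34.6% of the 50-base windows of C4b transcripts also occur in C4a, fragments of the copies may have been exchanged. With both genes summed the log2 ratio was 1.13.

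C3, on whose cleavage the pathways converge, had the highest FPKM of the members in Rbfox2 OE and the largest log2 ratio after adding 1 FPKM. By the plain ratio Cfb (4.44) and C3ar1 (5.48) were above it. C3 (ENSMUSG00000024164, chromosome 17, 57203970 to 57228136, minus strand) stood at 39.6 FPKM in MHC cells (21.02 to 58.2) and 152 FPKM in Rbfox2 OE cells (78.9 to 226), a ratio of 3.85 and a log2 ratio of 1.92. Its bounds were wide, lying 46.9% away from the value in MHC cells and 48.2% in Rbfox2 OE cells, so that the nearest pair of bounds gave a ratio of 1.36 and the farthest pair 10.7. For comparison, the distance from value to bound was 30.0% to 32.4% for the C1q chains. In MHC and Rbfox2 OE cells it was 60.3% and 58.4% for Cfb, and 60.7% and 47.4% for C5ar1. The medians over all genes compared were 38.4% and 39.3%.

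Cfb encodes factor B, the protease subunit of the alternative pathway's C3 convertase. Cfb (ENSMUSG00000090231, chromosome 17, 34856374 to 34862518, minus strand) rested on 1.76 FPKM in MHC cells (0.698 to 2.82) and 7.81 FPKM in Rbfox2 OE cells (3.25 to 12.4), a ratio of 4.44 and a log2 ratio of 1.67. The nearest bounds gave a ratio of 1.15, so the gap between the groups was narrow. Cfb shares its locus in the authors' table with C2, Gm20547, Mir6972 and Zbtb12, and 73.0% of its 50-base windows occur in Gm20547, an overlapping gene on the same strand. Gm20547 was listed at 0 in both groups, and summing Cfb, C2 and Gm20547 gave a log2 ratio of 1.60.

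C3ar1 and C5ar1 encode the receptors for C3a and C5a, which draw and activate leukocytes. C3ar1 (ENSMUSG00000040552, chromosome 6, 122847138 to 122856161, minus strand) was the lowest member, at 0.477 FPKM in MHC cells (0.259 to 0.695) and 2.61 FPKM in Rbfox2 OE cells (1.73 to 3.50). Its ratio of 5.48 was the largest of the members, while its log2 ratio after adding 1 FPKM was 1.29, against 2.45 without that addition. C5ar1 (ENSMUSG00000049130, chromosome 7, 16246743 to 16259540, minus strand) stood at 1.76 FPKM in MHC cells (0.693 to 2.83) and 5.99 FPKM in Rbfox2 OE cells (3.15 to 8.83), a ratio of 3.40. The bounds of C5ar1 came closest to touching among the members, with a ratio of 1.11 between the nearest pair. Per length, C5ar1 was 3.69 times C3ar1 in the control and 2.29 times in Rbfox2 OE.

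Serping1 encodes the C1 inhibitor, which inactivates the proteases that C1q and the lectins engage. Serping1 (ENSMUSG00000023224, chromosome 2, 84765387 to 84775444, minus strand) stood at 44.4 FPKM in MHC cells (30.1 to 58.7) and 141 FPKM in Rbfox2 OE cells (96.6 to 184). Its ratio was 3.17 and its log2 ratio 1.64, with a ratio of 1.65 between the nearest bounds. That ratio lay within the range of the component genes, 2.54 (C1qa) to 4.44 (Cfb).

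The members differed far more in level than in ratio. In the control the order was Serping1, C3, C1qa, C1qb, C1qc, C4b, C5ar1, Cfb and C3ar1, and the neighbours with bounds that did not overlap were C1qc and C4b, and Cfb and C3ar1. In Rbfox2 OE the order was C3, Serping1, C1qa, C1qb, C1qc, Cfb, C5ar1, C4b and C3ar1. There the bounds were also separate between Serping1 and C1qa, besides the steps from C1qc to Cfb and from C4b to C3ar1. The sum over the members was 157 FPKM in MHC cells and 501 FPKM in Rbfox2 OE cells, of which C3 and Serping1 gave 53.4% and 58.5%. The ranges that the bounds give for the ratios of the members all overlapped. The highest ratio from a nearest pair of bounds was 2.49 (C3ar1), under the lowest from a farthest pair, 4.82 (C1qa).

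**Figure D2:**
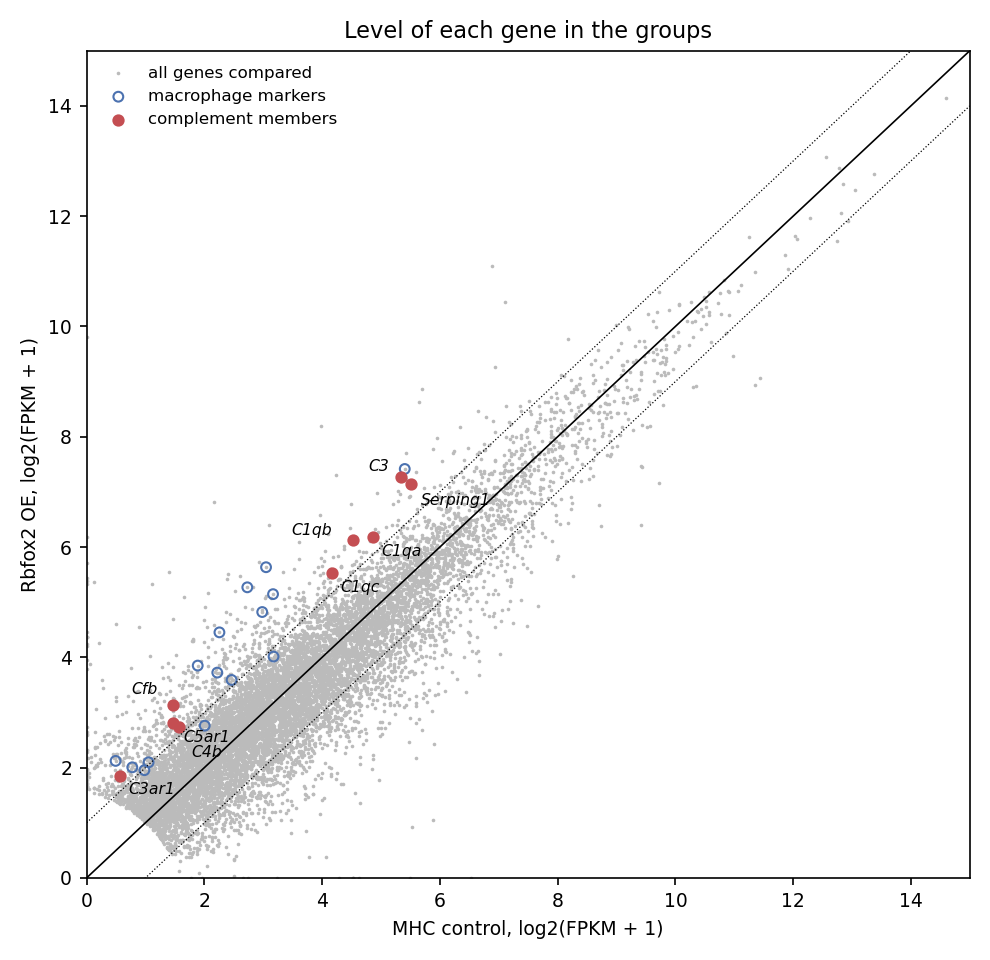
Each point is 1 gene averaging 1 FPKM or more, by its log2(FPKM + 1) in MHC control (x) and in Rbfox2 OE (y); the solid line marks equal values and the dotted lines a log2 ratio of 1 in either direction. The 9 complement genes (red) lie above the upper dotted line, between C3ar1 at the low end and C3 and Serping1 at the high end, among macrophage markers (blue rings).

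The protein-coding genes nearest to the mean of the C1q chains in log2(FPKM + 1) were Arpc1b, H2afy, Nop58, Rgcc and Slc3a2, at distances of 0.14 to 0.21. With 1 value in each of 2 groups, this likeness is only one of level and ratio. Arpc1b, the nearest, stood at 19.8 and 61.8 FPKM.

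The rest of the cascade was compared over a list of 59 complement genes, of which 50 are not among the 9. Of these 50, 27 averaged 1 FPKM or more, and 9 of the 27 were at least 2-fold higher and 0 at least 2-fold lower. Separate bounds were found for 7 of the 27, all higher, and both criteria were met by 6. C2, Cfd, C7 and Vsig4, 4 of the 27, were under 1 FPKM in the control and entered only through Rbfox2 OE. The 27 had a median log2 ratio of 0.62, beside -0.06 over all genes compared. No test of the difference between the members and these genes was possible.

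In the classical pathway C1ra, a protease of the C1 complex, stood at 3.54 FPKM in MHC cells (2.33 to 4.75) and 11.3 FPKM in Rbfox2 OE cells (7.76 to 14.8), a log2 ratio of 1.44. Its partner protease C1s1 had a nearly equal log2 ratio of 1.43, but its bounds overlapped, and C2 reached 0.83. In the alternative pathway Cfp, or properdin, which stabilises the C3 convertase, stood at 2.19 FPKM (1.13 to 3.25) and 8.28 FPKM (5.15 to 11.4), a log2 ratio of 1.54. Outside the members, 1 gene in each of these pathways thus met both criteria. Of the 9 lectin pathway genes listed, 5 were under the filter, and 0 of the 4 compared passed either criterion. Over all genes compared, 6.97% were at least 2-fold higher and 6.67% had separate bounds upward. At such shares 0 of 4 is not unusual, so it does not set this pathway apart from other genes. The 4 log2 ratios ran from -0.71 (Masp1, with bounds of 0 to 6.79 FPKM in Rbfox2 OE) to 0.70.

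The terminal components, which form the membrane attack complex, were low. C7 was higher with separate bounds, at 0.457 FPKM in MHC cells and 1.96 FPKM in Rbfox2 OE cells, and it entered the comparison only through Rbfox2 OE. C8g also had a log2 ratio of 1.01, but both of its lower bounds were 0. Hc (C5), C8a and C9 differed little, at 0.728, 0.856 and 1.32 FPKM in the control and 0.757, 0.809 and 1.38 FPKM in Rbfox2 OE. Hepatocyte markers differed as little: Alb stood at 91.5 and 89.1 FPKM, and the log2 ratios of the 4 hepatocyte genes ran from -0.13 to 0.05.

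Among the other regulators, Clu, a secreted chaperone that also binds terminal complexes and the most abundant gene of the list, stood at 789 and 738 FPKM with overlapping bounds. Of the 4 membrane regulators compared, of 8 listed, 0 passed either criterion, which again does not set so few genes apart from all genes compared. Cd59a and Cd59b, which block the membrane attack complex on a cell's own surface, had log2 ratios of -0.66 and -0.87, while Cd55 and Cr1l, which act on the C3 convertases, had 0.63 and 0.01, all with overlapping bounds.

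Among the other receptors compared the largest log2 ratios were those of the integrin subunits of complement receptor CR3, which binds the C3 fragment iC3b on leukocytes. Itgam stood at 1.10 FPKM in MHC cells and 9.58 FPKM in Rbfox2 OE cells, a log2 ratio of 2.33. Itgb2 stood at 1.28 and 8.09 FPKM, a log2 ratio of 1.99, and both genes had separate bounds. The values and bounds of Itgam are sums over 2 rows of that name. Vsig4, a macrophage receptor for C3 fragments that entered only through Rbfox2 OE, stood at 0.459 and 1.58 FPKM, a log2 ratio of 0.82 with separate bounds. Lrp1 reached 1.38 with overlapping bounds. Itgax, which averaged under 1 FPKM and was not compared, stood at 0.0657 and 1.23 FPKM with separate bounds. Its plain ratio of 18.7 was above the 8.69 of Itgam. The abundant C1qbp and Calr, which have many roles besides binding C1q, differed little, with log2 ratios of 0.30 and -0.04.

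**Figure D3:**
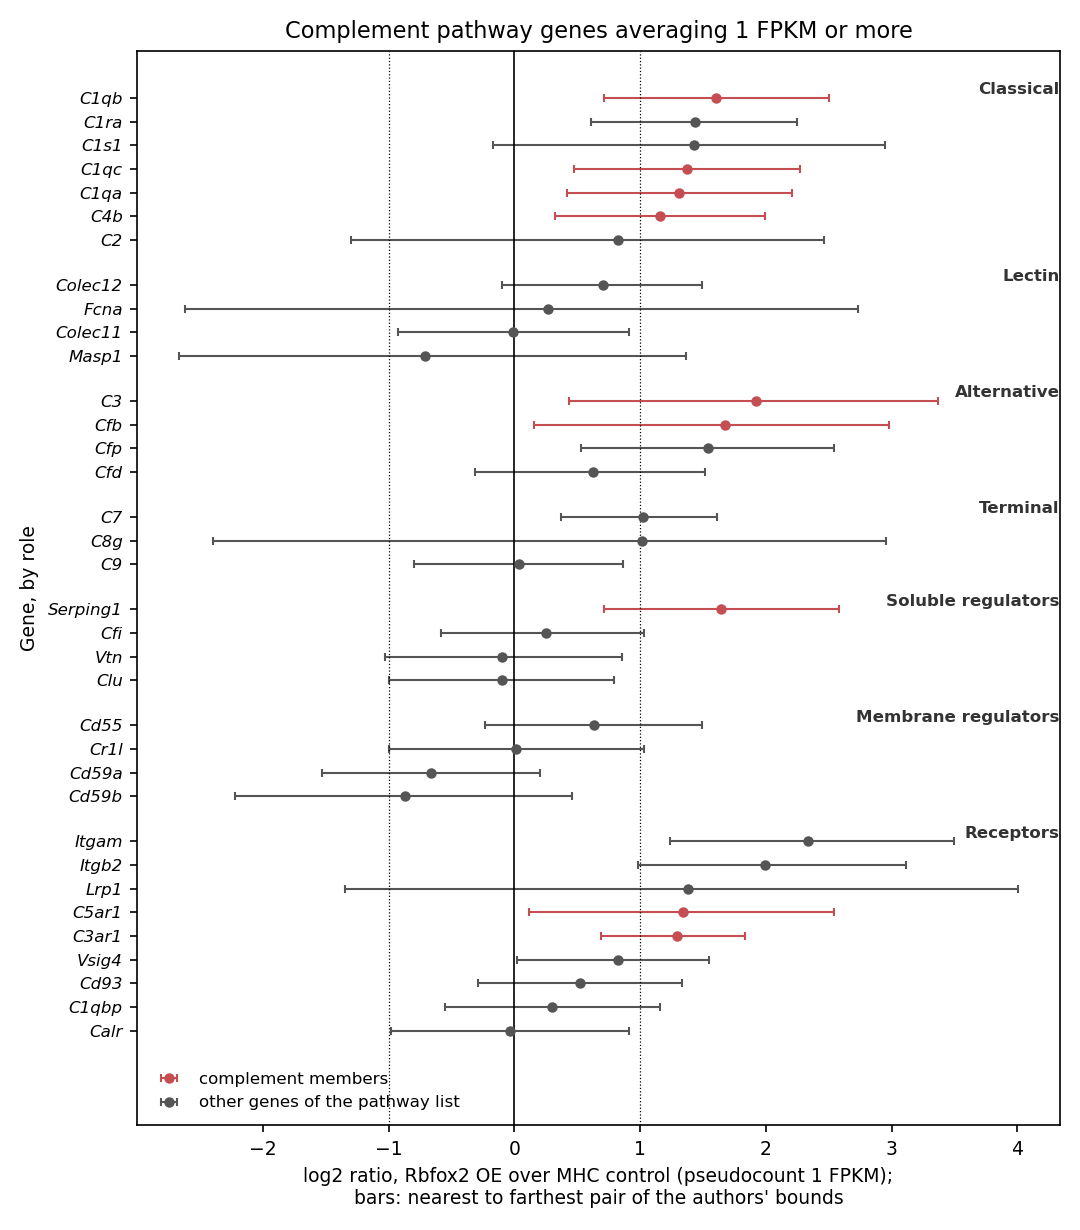
Log2 ratio, Rbfox2 OE against MHC control (pseudocount 1 FPKM), for 35 complement pathway genes averaging 1 FPKM or more, by role; bars run from the nearest to the farthest pair of the authors' bounds and dotted lines mark a log2 ratio of 1 in size. The 9 members (red) lie right of 1, while membrane regulators and lectin pathway genes lie on both sides of 0.

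Markers of several other cell types were higher in Rbfox2 OE as well. Of 15 macrophage markers compared, of 16 listed (Adgre1, Fcgr1 and Aif1 entered only through Rbfox2 OE), 12 were at least 2-fold higher and 12 had separate bounds, with 0 lower, and the list summed to 98.4 FPKM in MHC cells and 410 FPKM in Rbfox2 OE cells. Their median log2 ratio was 1.63. Within that list the C1q chains (1.31 to 1.60) lay above Cd163 (0.75), Lyve1 (0.84) and Csf1r (1.13), and below Cd14 (1.84), Ctss (2.54) and Fcer1g (2.59). No macrophage marker was listed at 0.

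Of 7 neutrophil markers 4 were compared, with log2 ratios of 1.99 to 3.11, but Csf3r and Retnlg entered only through Rbfox2 OE. The list summed to 9.03 FPKM in MHC cells and 94.4 FPKM in Rbfox2 OE cells. S100a9 stood at 4.26 and 44.5 FPKM. Of the 3 under the filter, Cxcr2 (0.0939 and 1.88 FPKM) and Mmp8 (0.188 and 1.79 FPKM) were higher with separate bounds. The third, the defining gene Ly6g, stood at 0.0836 and 0.205 FPKM with overlapping bounds. The 6 lymphocyte markers were all under the 1 FPKM mean, summing to 0.744 and 1.63 FPKM. Of 10 fibroblast markers, which are of interest because fibroblasts can make C3 and the C1 inhibitor, 8 were at least 2-fold higher, with a sum of 246 and 585 FPKM. Of 8 endothelial markers 2 were at least 2-fold higher and 3 had separate bounds, with log2 ratios from 0.03 to 1.30 and a sum of 213 and 370 FPKM. Of 7 smooth muscle and pericyte markers 2 were at least 2-fold higher and 3 had separate bounds, with log2 ratios from 0.18 to 1.65 and a sum of 146 and 326 FPKM. Of 9 cardiomyocyte markers with an estimate 2, Tnni3 and Actc1, were at least 2-fold lower and 3 had separate bounds, all lower. Their log2 ratios ran from -1.19 (Actc1) to 0.60 (Ttn), and the list summed to 58807 and 38394 FPKM. The part of these other cell types in the complement values was not tested.

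**Figure D4:**
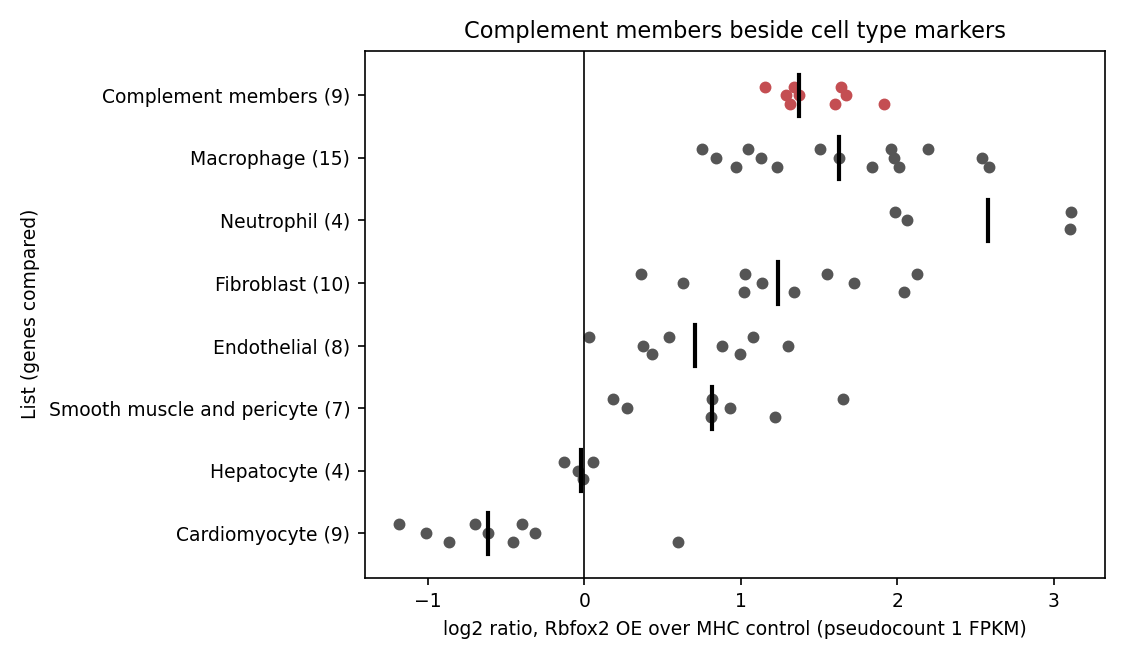
Log2 ratio, Rbfox2 OE against MHC control (pseudocount 1 FPKM), for the complement members (red) and for genes of 7 marker lists averaging 1 FPKM or more (grey); each point is 1 gene and each vertical bar the list's median. The complement median of 1.37 lies between those of the fibroblast (1.24) and macrophage (1.63) lists, and the hepatocyte genes lie close to 0.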

How the data were processed

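Stranded TruSeq libraries were made from polyadenylated RNA of isolated mouse cardiomyocytes and read on a HiSeq4000, per the labels' protocols. The submitters' processing notes name bcl2fastq 2.17.1.14, Trimmomatic, STAR 2.4.2a, Picard 1.119, HTSeq, DESeq2 and Cuffdiff 2.2.1, and the builds GRCm38 and mm10, with no role or order. The deposited values are FPKM by Cuffdiff, per the file headers, with 1 value, bounds and a status for each group. The annotation and the level of the bounds are not given in the sources used here. The number of unused columns of other samples was 0.

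From these values, log2 ratios with a pseudocount of 1 FPKM were computed in Python 3.11.15 with pandas 2.3.3, over 48316 gene names (rows of 110 repeated names were summed), and the 11697 averaging 1 FPKM or more were compared. All 9 members had the status OK. limma was planned for values per library, which the table does not hold. Coordinates came from GENCODE M21 (GRCm38). The steps were tested on simulated data.

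The members and lists were chosen with earlier results of these data known. Named beside the members were the pathway genes past both criteria (1 is counted but not reported here), the 3 most abundant of the list (Clu, Calr and C1qbp), Rbfox2, and the 5 genes most like the C1q chains. C1s1, C2, Masp1, Hc, C8a, C8g, C9, Cfd, Cd55, Cr1l, Cd59a, Cd59b, Vsig4, Itgax and Lrp1 were named after their values were seen. The motifs and the marker genes singled out were chosen likewise. Alternatives covered the pseudocount, the filter, the threshold, scaling, status, repeated names and overlapping or copied genes. The depth in fragments is unknown, so no counting interval is given.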

Additional observations from a re-analysis of the deposited data

How the results depend on the processing

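No paired analysis was possible because the libraries of a group have only a combined value, and for the same reason leaving out each library was not run. How far libraries of a group differed is unknown, as is the depth. The median log2 ratio of the 9 members, 1.37, lay between 1.20 and 1.66 over 6 alternatives. Every member stayed above 0 in each of its alternatives, which is no check of direction. A pseudocount cannot change a sign. Both rescalings, of which 1 centred on the median gene, multiplied the Rbfox2 OE values upward, by 1.04 and 1.11. A pseudocount of 5 FPKM left 5 of the 9 members and 10 pathway genes at least 2-fold higher, since it shrinks low genes: C4b fell to 0.61, Cfb to 0.92, C5ar1 to 0.70 and C3ar1 to 0.48. C3ar1 reached 2.23 with a pseudocount of 0.1 FPKM and 2.45 with none, a setting chosen after seeing the data. A 4-fold threshold left 0 members and 1 pathway gene (Itgam), of 18 at 2-fold. Shares over all genes were computed only at the main settings, so none stands beside the counts of the alternatives. Raising the filter to a mean of 5 FPKM kept 5 members, which had all passed both criteria before, and 18 pathway genes. Of these 18, 11 were 2-fold higher and 9 had separate bounds, against 18 and 16 of the 36 at a mean of 1 FPKM. Pathway genes at least 2-fold lower numbered 0, but 1 (Cd59b) with a pseudocount of 0.1 FPKM and 3 at a 1.5-fold threshold (Masp1, Cd59a and Cd59b). Rescaling without mitochondrial and the 10 most abundant genes moved the median of all genes from -0.06 to 0.07 and the members' median to 1.52. All 9 were still past both criteria, but this rescaling only raised the Rbfox2 OE values, so genes already higher could not fall back.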
